A study of Danio rerio with 9 samples.

Results

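The expression of 9 heat shock protein and chaperone genes was followed in single primordial germ cells (PGCs) of zebrafish. The genes were taken by symbol from 32266 annotated genes and comprise 1 Hsp40 gene (dnajb1b), 4 Hsp70 genes (hspa8, hsp70l, hspa5 and hspa9), 2 Hsp90 genes (hsp90ab1 and hsp90b1) and the mitochondrial Hsp60 and Hsp10 genes (hspd1 and hspe1). All embryos were of the AB strain and carried the kop-egfp-nanos3-3ʹUTR transgene, whose green fluorescence marks PGCs and was used to pick them by capillary. There were 3 groups, each with 3 cells from 1 embryo and named 6_1 to 24_3. Shield embryos gave the PGCs at 6 hpf, embryos with 3 somites those at 11 hpf, and prim-5 embryos those at 24 hpf. No group received a treatment or heat shock according to the labels. The whole embryo was dissociated by pipetting at 6 and 11 hpf, while the embryo at 24 hpf was anaesthetised and its trunk was minced first, so that handling and stage cannot be told apart.

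Chaperones of these families bind unfolded stretches of other proteins and help them fold. Hsp70 proteins grip and release their clients in a cycle driven by ATP, and an Hsp40 protein such as Dnajb1 hands over the client and speeds up ATP use. Hsp90 acts later, on nearly folded clients such as kinases and receptors. Each compartment has its own set. Hspa8 and Hsp90ab1 work in the cytosol, Hspa5 (BiP) and Hsp90b1 (Grp94) in the endoplasmic reticulum (ER), and Hspa9 and the Hsp60 and Hsp10 pair in mitochondria. Some members are made all the time and others mainly after heat or other stress, when the heat shock factor Hsf1 turns them on. Misfolded protein in the ER turns on hspa5 and hsp90b1 through a separate pathway, the unfolded protein response.

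Values are FPKM, fragments scaled by the exon length of the gene and by the mapped fragments of the library. Genes are set side by side on this scale, but whether amplification treated them alike was not tested. The depth behind a single value is unknown, since the table has no read counts. FPKM is also a share of the fragments of a cell, so that less of a transcript and more of the other RNA cannot be told apart. Summed over all genes, the libraries held an FPKM of 548917 to 613048. Genes were kept when 3 or more of the 9 cells had an FPKM of at least 1, which held for all 9 members and for 9329 genes in all. Because the 3 cells of a stage share an embryo, each stage counts as 1 sample, and p-values are not given. The log2 difference between stages compares their mean FPKM after 1 is added, and is positive where the later stage is higher. Its spread combines the SDs of log2(FPKM+1) of the cells of both stages, as the square root of the sum of their squares. The difference is thus taken between logs of means, while the spread is taken between logs of single cells. Where cells are uneven, whether the difference exceeds the spread can depend on this. Means are given as mean ± SD over the 3 cells of 1 embryo, and exact zeros are written as listed at 0, since a transcript missed during amplification gives the same value.

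The labels name the tissue as gonad. The cells carried germ cell transcripts at all stages, with 8 to 11 of 12 germ cell markers at an FPKM of at least 10 in each cell. Of 15 rows of muscle markers, at most 2 reached this level in a cell at 6 or 11 hpf, against 8 in 24_1, 10 in 24_2 and 1 in 24_3. The summed FPKM of the muscle markers was 664.9 in 24_1, 2683 in 24_2 and 49.3 in 24_3, against at most 38.2 in the other cells. The defining muscle genes actc1b, myl1 and mylpfa were listed at 0 in all 6 and 11 hpf cells. Neural and blood markers summed to at most 77.0 in any cell, epidermal markers to between 60.6 and 483, and yolk and liver markers to at most 386.6 except in 24_2, at 756.8. Cell 24_1 also had more genes at low values than the others. Of the genes that reached an FPKM of 1 in all the other cells, 19.0% were below 1 in 24_1, while for the remaining cells this share was 4.06% to 8.25%. The study lists more read pairs for 24_1 than for any 6 hpf cell. Why 24_1 had more low values was not tested.

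An FPKM of at least 10 in all 9 cells was reached by 4 members (hspa8, hspa5, hsp90ab1 and hspe1) and by 13.4% of the genes kept. Together the 9 members held 0.28% to 0.392% of the summed FPKM in the 6 hpf cells, 0.304% to 0.368% at 11 hpf and 0.245% to 0.277% at 24 hpf. All cells of the last stage thus lay below all earlier cells, by a narrow margin. The makeup of this sum differed as well. In the 6 hpf cells dnajb1b held 27.5% to 39.7% of it and hspa8 at most 33.6%. In the 24 hpf cells dnajb1b held at most 4.39% and hspa8 46.4% to 56.9%.

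**Figure D1:**
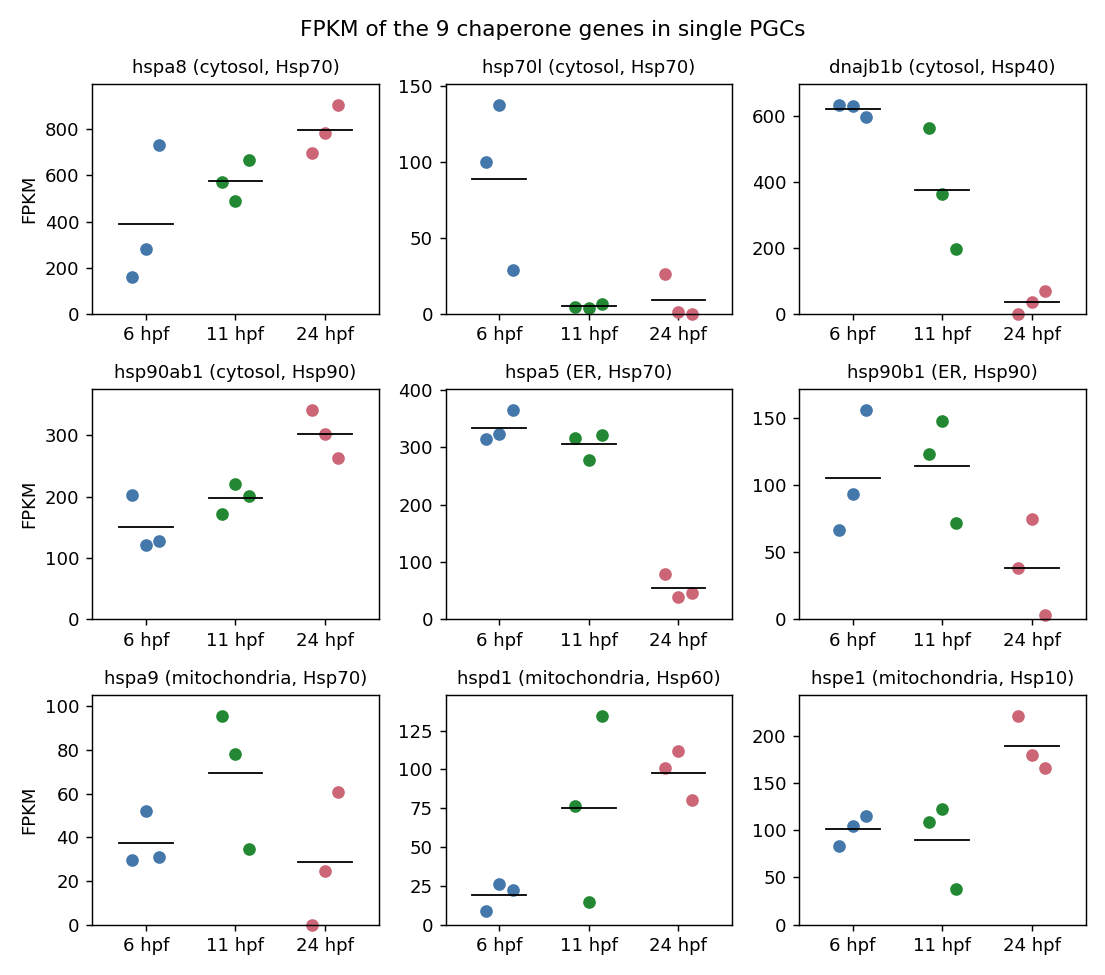
FPKM (vertical axis, linear, from 0) of the 9 chaperone genes in single PGCs by stage, where each point is 1 cell and the line is the mean of the 3 cells of 1 embryo. The cells of hspa5 and dnajb1b at 24 hpf lie below all earlier cells, and those of hsp90ab1 and hspe1 above all earlier cells, which for hsp90ab1 and hspe1 holds for FPKM and not when each value is divided by that of actb1 (beta actin).

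Cytosolic Hsp70 was represented by hspa8 (ENSDARG00000068992), the constitutive Hsc70 that folds new proteins and uncoats clathrin vesicles. Its FPKM was 161, 282 and 731 in the 6 hpf cells, 569.6, 489 and 666 in the 11 hpf cells and 697, 784 and 908 in the 24 hpf cells. The cells at 6 hpf were far apart, with 6_3 above all 11 hpf cells and also above 24_1. Cells at 11 and 24 hpf did not overlap. The mean FPKM of hspa8 by stage was 391 ± 301, 575 ± 88.8 and 796 ± 106. The log2 difference was 0.55 from 6 to 11 hpf, within its spread of 1.13, and 0.47 from 11 to 24 hpf, beyond its spread of 0.29. Divided by actb1, the beta actin gene that the study used as reference, these were -0.35 and -0.015, so neither direction held on that scale. There the medians over the genes kept were -0.99 and -0.51. In undivided FPKM the step from 6 to 11 hpf was 1.37 without 6_3 and 0.18 without 6_1. At 11 and 24 hpf hspa8 was the most abundant of the 9 members in every cell, and at 24 hpf 0.6% of the genes kept had a mean at or above it.

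In mean FPKM, the opposite order of stages was seen for dnajb1b (ENSDARG00000041394), a partner of Hsp70 that stimulates its ATP use and that is itself a heat shock gene. This is also the one member that the study measured by single-cell qPCR, and its primer pair is shown to identify the transcript, although the qPCR values were not analysed here. Both primers are written 5ʹ to 3ʹ.
dnajb1b forward primer: ttacagcgttttggggattc
dnajb1b reverse primer: gcatgaggatctccttggaa
The FPKM of dnajb1b was 635, 631 and 597 in the 6 hpf cells, 563, 363 and 197 in the 11 hpf cells, and 0, 34.7 and 70.09 in the 24 hpf cells, the value of 24_1 being listed at 0. The cells of the 3 stages did not overlap. At 6 hpf the mean was 621 ± 21.1, and 0.697% of the genes kept had a mean at or above it. The coefficient of variation (CV, the SD as a percent of the mean) of these 3 cells was 3.39%, against a median of 62.0% over the 5726 genes with a mean of at least 10 at this stage. At 11 hpf the cells were less alike, with a mean of 374 ± 183 and a CV of 48.9%. The log2 difference of dnajb1b was -0.73 from 6 to 11 hpf (spread 0.76) and -3.39 from 11 to 24 hpf (spread 3.39), in both cases not larger than the spread. Taken between means of log2 values, these differences were -0.855 and -4.66, both larger than the spread, so the outcome depends on the averaging. Taken between logs of means, the second step was -2.81 without 24_1, the cell listed at 0, and -4.35 without 24_3. The first ran from -1.15 without 11_1 to -0.42 without 11_3. Relative to actb1, dnajb1b was at 2.56, 2.03 and 1.33 times the FPKM of actb1 in the 6 hpf cells, at 0.805, 0.685 and 0.224 times in the 11 hpf cells and at no more than 0.0685 times at 24 hpf.

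The inducible Hsp70 gene hsp70l (ENSDARG00000055723) was the least abundant member in every cell at 11 hpf. In zebrafish this gene is strongly turned on by heat shock, and its promoter is used to drive heat-inducible transgenes. Its FPKM was 100.05, 138 and 28.6 in the 6 hpf cells and 4.47, 3.65 and 6.04 in the 11 hpf cells. At 24 hpf hsp70l was 26.3 in 24_1 and 0.770 in 24_2 and was listed at 0 in 24_3. All 6 hpf cells were thus above all later cells, the closest pair being 6_3 and 24_1. The log2 difference of hsp70l was -3.97 from 6 to 11 hpf, beyond its spread of 1.22 and between -4.39 and -3.51 when single cells were left out. Of the genes kept, 2.32% had a difference at or below this value. From 11 to 24 hpf the difference was 0.81 with a spread of 2.57 and rested on 24_1, without which it was -2.05. Reads of hsp70l, hsp70.2 and hsp70.3 may be shared, because these genes are close copies, and their single values are uncertain to that degree.

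Cytosolic Hsp90 was represented by hsp90ab1 (ENSDARG00000029150), the constitutive Hsp90 beta. Its FPKM was 203, 120.3 and 127 in the 6 hpf cells, 172, 220.4 and 201 in the 11 hpf cells and 341, 302 and 264 in the 24 hpf cells. All 24 hpf cells lay above all earlier cells, while 6_1 lay within the range of 11 hpf. The mean FPKM was 150.0 ± 45.7, 198 ± 24.2 and 303 ± 38.8 at 6, 11 and 24 hpf. The log2 difference of hsp90ab1 was 0.40 from 6 to 11 hpf (spread 0.45) and 0.61 from 11 to 24 hpf (spread 0.26), and only the second was larger than the spread. Divided by actb1 these differences were -0.74 and 0.053, against medians of -0.99 and -0.51 over the genes kept on that scale. The cells of the later stages were alike, with a CV of 12.3% at 11 hpf and 12.8% at 24 hpf. The medians over the genes with a mean of at least 10 were 77.4% and 86.9%. At 6 hpf the CV was 30.5%, against 62.0%. Only 4.47% of the genes kept at 11 hpf and 3.51% at 24 hpf had a mean at or above that of hsp90ab1. Most of the compared genes were thus less abundant, and genes of like abundance were not compared.

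In the ER, hspa5 (ENSDARG00000103846) encodes BiP, the Hsp70 that folds secreted proteins and holds the sensors of the unfolded protein response inactive. Its FPKM was 314, 324 and 365 in the 6 hpf cells, 317, 278 and 321 in the 11 hpf cells and 78.3, 38.8 and 45.2 in the 24 hpf cells. The 6 earlier cells lay within a narrow range, and every cell at 24 hpf lay far below them. The mean FPKM of hspa5 by stage was 334 ± 27.1, 305 ± 23.9 and 54.1 ± 21.2. The log2 difference was -0.13 from 6 to 11 hpf, within its spread of 0.16, and -2.47 from 11 to 24 hpf, beyond its spread of 0.54 and between -2.83 and -2.29 when single cells were left out. The mean was 5.64-fold lower at 24 hpf than at 11 hpf. This was the largest difference relative to its spread among the members in that step. Of the genes kept, 14.3% had a difference at or below that of hspa5, so a difference of this size was not rare in these libraries.

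The ER member of the Hsp90 family, hsp90b1 (ENSDARG00000003570), folds a restricted set of secreted and membrane proteins, among them integrins and Toll-like receptors. Its FPKM was 66.5, 93.2 and 156 in the 6 hpf cells, 123, 148 and 72.1 in the 11 hpf cells and 38.3, 74.4 and 2.84 in the 24 hpf cells. Cell 24_2 lay within the range of the earlier stages, and 24_1 and 24_3 lay below it. The log2 difference of hsp90b1 was 0.12 from 6 to 11 hpf (spread 0.81) and -1.55 from 11 to 24 hpf (spread 2.32), both within the spread. The first was -0.12 without 6_1, -0.11 without 11_2 and 0.51 without 6_3, so its sign rested on single cells, and the second was -2.42 without 24_2 and -1.01 without 24_3. The summed FPKM of hspa5 and hsp90b1 was between 381 and 521 in the cells at 6 and 11 hpf, and it was 117, 113 and 48.0 in the 24 hpf cells.

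In mitochondria, hspa9 (ENSDARG00000003035) encodes mortalin, the Hsp70 that pulls imported proteins through the inner membrane. Its FPKM was 29.4, 52.0 and 31.1 in the 6 hpf cells, 95.8, 78.2 and 34.6 in the 11 hpf cells and 0.0638, 24.8 and 60.6 in the 24 hpf cells. The cells of all stages overlapped, with 24_1 near 0. The log2 difference of hspa9 was 0.87 from 6 to 11 hpf (spread 0.88) and -1.26 from 11 to 24 hpf (spread 3.18), both within the spread. The first was -0.13 when divided by actb1, where the median over the genes kept was -0.99. The second was -0.69 without 24_1 and -2.39 without 24_3.

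The mitochondrial folding chamber is built of Hsp60, encoded by hspd1 (ENSDARG00000056160), and its lid Hsp10, encoded by hspe1 (ENSDARG00000056167). In the RefSeq annotation of the GRCz12tu assembly these genes are direct neighbours. The FPKM of hspd1 was 8.99, 26.2 and 22.3 in the 6 hpf cells, 76.2, 14.4 and 135 in the 11 hpf cells and 101, 112 and 80.2 in the 24 hpf cells. All 24 hpf cells lay above all 6 hpf cells in FPKM, though not when divided by actb1, and the 11 hpf cells spanned both ranges. The mean FPKM of hspd1 was 19.1 ± 9.01, 75.1 ± 60.2 and 97.5 ± 16.0 at 6, 11 and 24 hpf. The log2 difference was 1.92 from 6 to 11 hpf (spread 1.81), 0.37 from 11 to 24 hpf (spread 1.65) and 2.29 from 6 to 24 hpf (spread 0.81). Without 11_3 the first of these was 1.2, and taken between means of log2 values it was 1.56, both below that spread. The second was -0.11 without 11_2 and 1.09 without 11_3.

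The FPKM of hspe1 was 83.4, 105 and 115 in the 6 hpf cells, 108, 122 and 37.8 in the 11 hpf cells and 221, 180 and 166 in the 24 hpf cells. Cells at 6 and 11 hpf overlapped, and all 24 hpf cells lay above them. The mean FPKM of hspe1 was 101 ± 16.3, 89.4 ± 45.2 and 189 ± 29.0 at 6, 11 and 24 hpf. The log2 difference was -0.18 from 6 to 11 hpf (spread 0.95) and 1.07 from 11 to 24 hpf (spread 0.94). The latter was 0.71 without 11_3, 0.94 without 24_1 and 0.41 when divided by actb1. On the actb1 scale the median over the genes kept was -0.51.

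The genes hspd1 and hspe1 did not keep a fixed ratio from cell to cell. The FPKM of hspe1 was 9.27, 4.0 and 5.18 times that of hspd1 in the 6 hpf cells, 1.42, 8.48 and 0.281 times in the 11 hpf cells and 2.20, 1.61 and 2.07 times in the 24 hpf cells. The ratio was thus widest at 11 hpf and narrow at 24 hpf. Over the 9 cells, which share stages and embryos, the Pearson correlation of log2(FPKM+1) was 0.095 for this pair. It was 0.68 for the ER pair hspa5 and hsp90b1 and 0.87 for dnajb1b and hspa9, both of which were lowest in 24_1. It was -0.79 for hspa5 and hsp90ab1.

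**Figure D2:**
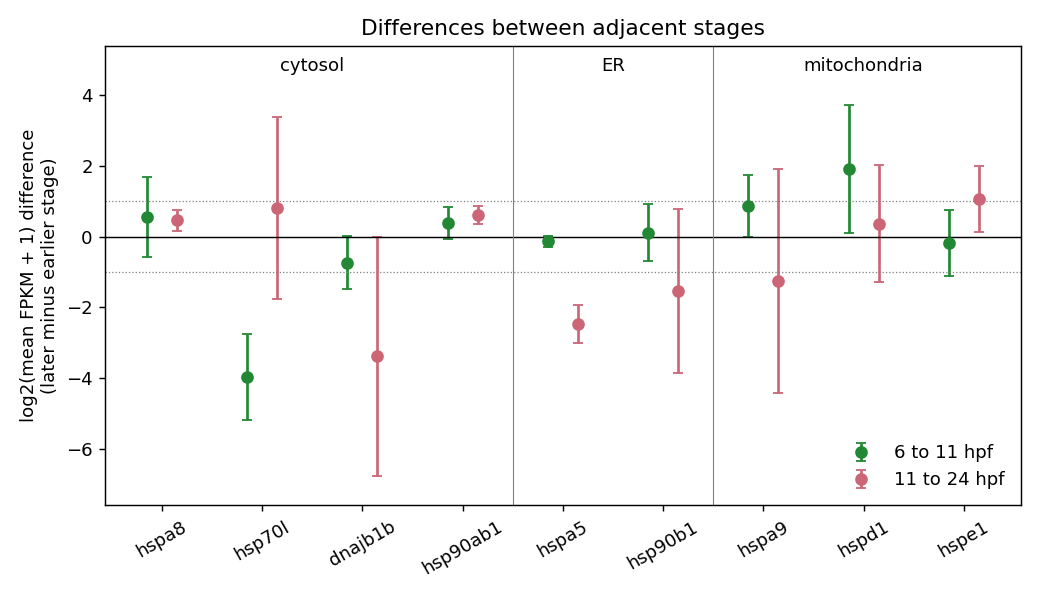
Difference in log2(mean FPKM + 1) between adjacent stages (vertical axis, later minus earlier stage) for the 9 members, grouped by compartment. Bars show the spread between cells and dotted lines mark 2-fold. From 11 to 24 hpf the bars of hspa8, hsp90ab1, hspa5 and hspe1 stay clear of 0, at 0.47, 0.61, -2.47 and 1.07. Dividing by actb1 puts hspa8 at -0.015 and leaves hsp90ab1 at 0.053 and hspe1 at 0.41, both smaller than the spread of the undivided FPKM. The median over the genes kept is -0.51 on that scale.

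From 6 to 11 hpf 1 of 9 members was higher by at least 2-fold (hspd1), against 21.7% of the genes kept, and 1 was lower (hsp70l), against 21.8%. In the same step no member lay higher without overlap (5.78% of the genes kept), and 2 lay lower, dnajb1b and hsp70l (6.96%). From 11 to 24 hpf 1 member was higher by 2-fold (hspe1, with 26.1% of the genes kept) and 4 were lower (dnajb1b, hspa5, hspa9 and hsp90b1, with 31.5%). Without overlap 3 members lay higher (hspa8, hsp90ab1 and hspe1, with 8.62% of the genes kept) and 2 lower (dnajb1b and hspa5, with 10.2%). Divided by actb1, the difference of hspa8 was -0.015, of the other sign. Those of hsp90ab1 (0.053) and hspe1 (0.41) were smaller than their spreads in undivided FPKM. On that scale the median over the genes kept was -0.51, below all 3 members. The numbers of members past 2-fold were close to what these shares give for 9 genes. The median over the members was 0.12 from 6 to 11 hpf, 0.37 from 11 to 24 hpf and -0.39 from 6 to 24 hpf, against 0.029, -0.08 and -0.10 over the genes kept. Members differed in sign in every step, and the sign of their median in each step changed when single cells were left out.

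Over the whole period, 3 members were higher at 24 hpf than at 6 hpf by at least 2-fold (hspa8, hsp90ab1 and hspd1, with 27.5% of the genes kept) and 4 were lower (dnajb1b, hsp70l, hspa5 and hsp90b1, with 33.3%). Without overlap 3 lay higher (hsp90ab1, hspd1 and hspe1, with 10.4%) and 3 lower (dnajb1b, hsp70l and hspa5, with 14.6%). This comparison shares its cells with both steps above. The log2 difference from 6 to 24 hpf was 1.01 for hsp90ab1 (spread 0.45) and 1.02 for hspa8 (spread 1.12). After division by actb1, whose FPKM was 248 to 449 in the 6 hpf cells and 752 to 1294 at 24 hpf, these differences were -0.68 and -0.37, and that of hspe1 was -0.70 in place of 0.90. The direction for hspa8, hsp90ab1 and hspe1 therefore holds for FPKM and not relative to actb1. On that scale the median over the genes kept was -1.54 and 61.6% of them were lower by 2-fold, so lower values were common. On both scales hspa5, dnajb1b and hsp70l were lower and hspd1 was higher. For hspd1 the difference relative to actb1 was 0.83, less than 2-fold. There 6_2 (0.0843 times actb1) lay above 24_1 (0.0778) and 24_3 (0.0784).

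Ratios between members within a cell do not depend on the scaling of that cell. The FPKM of hspa8 was 0.511, 0.872 and 2.0 times that of hspa5 in the 6 hpf cells, 1.80, 1.76 and 2.08 times in the 11 hpf cells and 8.90, 20.2 and 20.1 times in the 24 hpf cells. All 24 hpf cells thus lay above the earlier ones, and 6_3 resembled the 11 hpf cells. Of the summed FPKM of the 4 Hsp70 genes, hspa8 held 26.6%, 35.5% and 63.2% in the 6 hpf cells, 57.7%, 57.6% and 64.8% in the 11 hpf cells and 86.9%, 92.4% and 89.6% in the 24 hpf cells. In turn hspa5 held 52.0%, 40.7% and 31.6% in the 6 hpf cells, 31.2% to 32.7% in the 11 hpf cells and 9.77%, 4.57% and 4.46% in the 24 hpf cells. The share of hsp70l was 16.6%, 17.3% and 2.47% at 6 hpf and at most 3.28% later. The summed FPKM of the 4 genes itself was 604 to 1156 in the 6 hpf cells, 848 to 1028 in the 11 hpf cells and 802 to 1013 in the 24 hpf cells, and these ranges overlapped. Left out of this sum were, among others, the cytosolic genes hsp70.2 and hsp70.3. At 6 hpf their FPKM was 87.3 to 183 and 134 to 268, and at 24 hpf at most 13.2 and 4.35. These shares and sums therefore do not describe all Hsp70.

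The Hsp90 pair showed a similar order. The FPKM of hsp90ab1 was 3.05, 1.29 and 0.815 times that of hsp90b1 in the 6 hpf cells, 1.40, 1.49 and 2.78 times in the 11 hpf cells and 8.92, 4.06 and 92.8 times in the 24 hpf cells. The ratio in 24_3 rests on the low value of 2.84 for hsp90b1 in that cell, and the lowest ratio at 24 hpf, in 24_2, still lay above all earlier cells. In both pairs the cytosolic gene thus exceeded the ER gene in every cell at 11 and 24 hpf, and by most in the 24 hpf cells. The Hsp90 pair leaves out a further cytosolic gene, hsp90aa1.2. Its FPKM was 219 to 408 in the 6 hpf cells and 45.9 to 129 in the 24 hpf cells, so these ratios do not describe all cytosolic Hsp90.

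**Figure D3:**
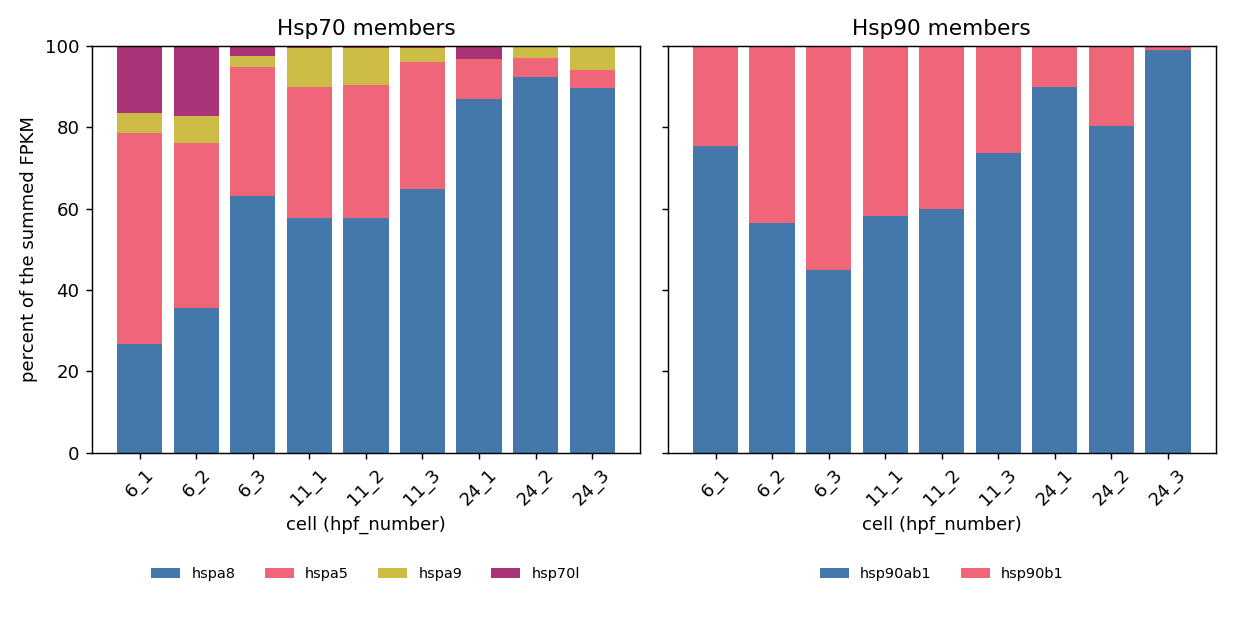
Percent of the summed FPKM of the 4 Hsp70 genes (left) and the 2 Hsp90 genes (right) held by each gene, with 1 bar per cell. The share of hspa8 is 86.9% to 92.4% at 24 hpf and at most 64.8% in the earlier cells. Other genes of these families, among them hsp70.2, hsp70.3 and hsp90aa1.2, are not included.

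The other genes of these pathways were taken from 4 lists written by symbol. Of 29 inducible Hsp, small Hsp and heat shock factor genes, 25 were in the table, 12 of them listed at 0 in all cells, and 8 were kept. From 6 to 11 hpf 1 of these 8 was higher and 3 were lower by at least 2-fold, against 21.7% and 21.8% of the genes kept, with a median of -0.63 against 0.029. From 11 to 24 hpf 5 were lower and 2 higher, against 31.5% and 26.1% of the genes kept, and the median log2 difference was -1.45, against -0.08 over the genes kept. The FPKM of hsp70.3 (ENSDARG00000021924), an inducible Hsp70 gene, was 134, 266 and 268 in the 6 hpf cells, 145, 64.9 and 119.8 in the 11 hpf cells and 2.83, 4.35 and 0 in the 24 hpf cells. That of hsp70.2 (ENSDARG00000092362), its neighbour in the RefSeq annotation, was 120.3, 183 and 87.3 in the 6 hpf cells, 29.8, 15.1 and 22.9 in the 11 hpf cells and 2.80, 13.2 and 0 in the 24 hpf cells. The 3 inducible Hsp70 genes thus had their highest cells at 6 hpf, with log2 differences from 6 to 11 hpf of -3.97 for hsp70l, -2.47 for hsp70.2 (spread 0.71) and -1.01 for hsp70.3 (spread 0.83). From 11 to 24 hpf the difference was -5.03 (spread 1.41) for hsp70.3 and -1.90 (spread 1.97) for hsp70.2.

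The second cytosolic Hsp90 gene in these cells was hsp90aa1.2 (ENSDARG00000024746), a Hsp90 alpha gene. Its FPKM was 242, 219 and 408 in the 6 hpf cells, 247, 305 and 124 in the 11 hpf cells and 63.9, 129 and 45.9 in the 24 hpf cells. The 24 hpf cells overlapped those at 11 hpf only through 24_2 and 11_3. The FPKM of hsp90ab1 was 0.312 to 0.838 times that of hsp90aa1.2 at 6 hpf, 0.697 to 1.62 times at 11 hpf and 2.35 to 5.75 times at 24 hpf, so that the order of the beta and alpha genes was turned round between the first and the last stage. The other alpha gene, hsp90aa1.1, which is needed for muscle fibre assembly in zebrafish, was at 34.4 in 24_2 and at most 6.07 in any other cell. Both alpha genes are neighbours and close copies, so that their reads may also be shared. Cell 24_2 is the cell with the highest summed muscle markers, and their part in this value was not tested. The small Hsp gene hspb1 (Hsp27) was at 318, 508 and 418 in the 6 hpf cells, 285, 347 and 399.9 in the 11 hpf cells and 207, 91.2 and 90.2 in the 24 hpf cells, where all cells lay below the earlier ones. The heat shock factor hsf1 was listed at 0 in 6_2 and in all 24 hpf cells and reached at most 24.96, in 11_3. The factor hsf2 was between 30.6 and 38.8 at 6 hpf, at 1.12, 34.9 and 2.08 in the 11 hpf cells and at 30.5 in 24_2, with 24_1 and 24_3 listed at 0, so that single cells of the later stages were level with the first. The gene hsbp1b, which encodes a small protein that binds heat shock factors, was at 218, 155 and 126.5 in the 24 hpf cells, above all 11 hpf cells (54.9 to 88.8), with a log2 difference of 1.13 (spread 0.54). At 6 hpf hsbp1b was between 35.4 and 131, which overlapped 24 hpf. When its values were divided by actb1, the 11 and 24 hpf cells overlapped as well.

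Of 48 genes of ER chaperones and the unfolded protein response, 43 were in the table and 33 were kept. From 6 to 11 hpf 3 of them were higher and 9 lower by at least 2-fold, and from 11 to 24 hpf 4 were higher and 12 lower. These are shares of 9.09% and 27.3% in the first step, against 21.7% and 21.8% of the genes kept, and of 12.1% and 36.4% in the second, against 26.1% and 31.5%. In these steps the shares of lower genes were thus near those of all genes, and the shares of higher genes were below them. From 6 to 24 hpf 3 of the 33 genes were higher and 17 lower by at least 2-fold, against 27.5% and 33.3% of the genes kept. The median log2 difference was -0.69 in the first step and -0.47 in the second, against 0.029 and -0.08. Over the 28 genes above 0 at both stages the second was -0.19. Lower at 24 hpf than at 11 hpf by at least 2-fold and without overlap were 3 of the 33 genes, xbp1, sdf2 and manf. Without a fold limit, 10.2% of all genes kept lay lower without overlap in this step. The FPKM of xbp1 (ENSDARG00000035622), a transcription factor of the unfolded protein response, was 224, 186 and 183 in the 6 hpf cells, 129.7, 122 and 86.8 in the 11 hpf cells and 6.85, 32.1 and 11.0 in the 24 hpf cells, a log2 difference of -2.69 in the second step (spread 1.11). The cells of its 3 stages did not overlap. That of manf, an ER-resident secreted factor, was 128, 325 and 255 in the 6 hpf cells, 175, 176 and 117 in the 11 hpf cells and 0.348, 30.3 and 62.2 in the 24 hpf cells, a log2 difference of -2.30 within its spread of 2.98. That of sdf2 was 11.3 to 49.9 at 11 hpf and 10.2 in 24_3, with 24_1 and 24_2 listed at 0.

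Lower from 6 to 11 hpf by at least 2-fold and without overlap were ddit3 (Chop, which promotes cell death in prolonged ER stress), uggt1 (a sensor of misfolded glycoproteins) and the calreticulin gene calr3a. The difference of calr3a, -2.32, was within its spread of 3.10. The FPKM of ddit3 was 7.47, 37.5 and 16.1 in the 6 hpf cells, and of the later cells 11_2 alone was above 0, at 2.47. Not all ER genes were lower. The FPKM of canx (calnexin, a lectin chaperone) was 66.3, 42.1 and 67.9 in the 24 hpf cells against 12.96 to 30.2 at 11 hpf, a log2 difference of 1.29 (spread 0.74), while at 6 hpf it was 21.1 to 52.7 and overlapped 24 hpf. When divided by actb1, the 11 and 24 hpf cells of canx just overlapped. The FPKM of pdia5, a disulfide isomerase, was 64.7, 50.1 and 40.8 in the 24 hpf cells against 0.0883 to 20.9 at 11 hpf. Its log2 difference of 1.87 was within its spread of 2.495. The Hsp40 partner of BiP, dnajb11, was between 94.5 and 214 in all 9 cells, with log2 differences of -0.084 and -0.20. The direction of hspa5 was thus shared by some ER genes and not by others.

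Of 20 genes of mitochondrial chaperones and proteases, 16 were in the table, and 14 rows were kept, 2 of them for clpxa. From 6 to 11 hpf 5 were higher and 1 lower by at least 2-fold, and from 11 to 24 hpf 2 were higher and 5 lower, as shares 35.7% and 7.14% against 21.7% and 21.8% of the genes kept, then 14.3% and 35.7% against 26.1% and 31.5%. The medians were 0.31 and -0.51, against 0.029 and -0.08. Divided by actb1 the first became -0.65, against -0.99 over the genes kept, so it lay above that median on both scales. The FPKM of timm44, which tethers Hspa9 to the import channel, was 28.6, 27.7 and 28.8 in the 6 hpf cells, 60.2, 147 and 85.6 in the 11 hpf cells and 102, 148 and 173 in the 24 hpf cells. In FPKM all 6 hpf cells lay below the later ones, with a log2 difference of 1.75 (spread 0.64), but not when divided by actb1. That of trap1, the mitochondrial Hsp90, was 0, 11.1 and 27.0 in the 6 hpf cells, 30.6, 0 and 0 in the 11 hpf cells and 19.4, 42.0 and 53.1 in the 24 hpf cells, and the stages overlapped. The Hsp40 gene dnaja3a was between 5.33 and 48.0 at 6 hpf, between 25.8 and 124 at 11 hpf and at 22.4 in 24_2, with 24_1 and 24_3 listed at 0, and its log2 difference of -2.86 in the second step was within its spread of 2.89. The disaggregase gene clpb was listed at 0 in all 11 hpf cells and was between 3.97 and 7.64 at 24 hpf.

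Of 44 genes of cytosolic partners of Hsp70 and Hsp90, 39 were in the table and 29 were kept. From 6 to 11 hpf 1 was higher and 5 lower by at least 2-fold, and from 11 to 24 hpf 8 were higher and 5 lower, as shares 3.45% and 17.2% against 21.7% and 21.8% of the genes kept, then 27.6% and 17.2% against 26.1% and 31.5%. The medians were -0.044 and -0.29, against 0.029 and -0.08. With TPM scaling the first became 0.007, against 0.072 over the genes kept. The FPKM of hspa14, an Hsp70 that works at the ribosome in human cells, was 37.6, 117 and 77.7 in the 6 hpf cells, 139.9, 49.9 and 138 in the 11 hpf cells and 320.3, 228 and 197 in the 24 hpf cells. Its log2 difference in the second step was 1.18 (spread 0.92). The 11 and 24 hpf cells of hspa14 did not overlap in FPKM, but they did when divided by actb1. The nucleotide exchange factor hspbp1, which takes ADP off Hsp70, was at 25.9 to 71.1 at 6 hpf, 74.7 to 139 at 11 hpf and 24.3 in 24_2, and it was listed at 0 in 24_1 and 24_3. The Hsp90 cochaperone ppid was at 18.1 to 78.3 at 6 hpf, 0 to 34.1 at 11 hpf and 51.3 to 78.4 at 24 hpf, and its log2 difference of 1.95 in the second step was within its spread of 2.69. The cochaperone chordc1a was listed at 0 in all 11 hpf cells, was between 25.6 and 41.8 at 6 hpf and was at 89.8 in 24_1 and 37.8 in 24_3, with 24_2 listed at 0.

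Without 24_1, from 11 to 24 hpf 1 gene was higher and 5 lower among the inducible genes, 4 and 13 among the ER genes, 3 and 5 among the mitochondrial genes and 7 and 4 among the cytosolic partners, against 26.3% and 33.3% of the genes kept. The medians were then -1.50, -0.79, -0.27 and 0.063, against -0.064. Without 24_2 the counts were 1 and 6, 5 and 14, 3 and 7, and 7 and 9, against 25.1% and 37.2% of the genes kept, and the medians were -2.66, -0.43, -0.75 and -0.38, against -0.22. The median of the cytosolic partners thus changed sign without 24_1, and that of the inducible genes was lower without 24_2.

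**Figure D4:**
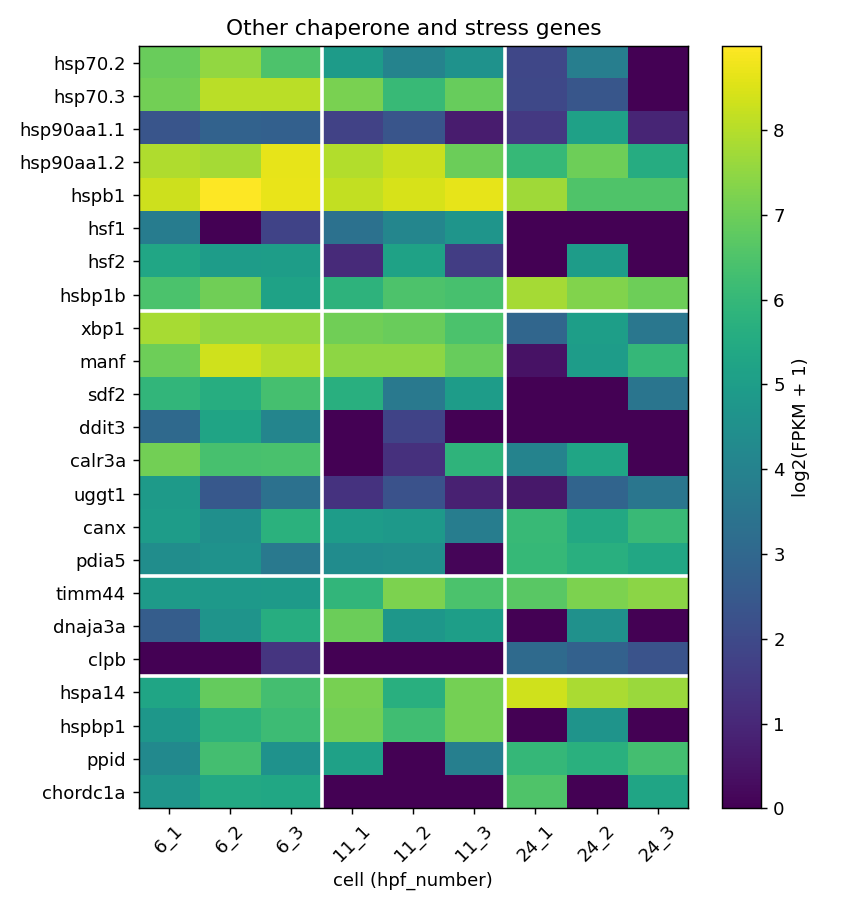
Level as log2(FPKM + 1) (colour) of other chaperone and stress genes (rows) in the 9 cells (columns), grouped from top to bottom as inducible Hsp, heat shock factors and small Hsp, ER genes, mitochondrial genes and cytosolic partners. The darkest fields are values listed at 0, as for hsf1 in all 24 hpf cells, and hsp70.3 and xbp1 are at most 4.35 and 32.1 FPKM at that stage.

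The genes whose values over the 9 cells were most like those of a member were sought among 6153 genes with a mean FPKM of at least 10, by Pearson correlation of log2(FPKM+1). With 9 cells of 3 embryos such likeness is a description of these libraries. For hspa8 they were setd4 (0.96), the initiation factor gene eif2s3 (0.96) and si:dkeyp-38g8.5 (0.95). For hspa5 they were si:dkey-90l23.1 (0.98), slc35f6 (0.98) and fam206a (0.97), each of them listed at 0 in all 24 hpf cells, and 151 genes had a correlation of at least 0.9. For hspa9 they were zgc:162962 (0.98), si:ch211-140b10.6 (0.98) and zgc:173726 (0.98), each listed at 0 in 24_1. For hsp90ab1 they were pmpcb (0.98), the subunit of a mitochondrial peptidase, gabarapb (0.96), an autophagy protein gene, and etfb (0.93), of mitochondrial electron transfer, and 12 genes reached 0.9. The FPKM of gabarapb was 84.8 to 189 in the 6 hpf cells, 179 to 202 in the 11 hpf cells and 481.5 to 678.5 in the 24 hpf cells.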

How the data were processed

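Single PGCs were lysed and their RNA was amplified by a modified Smart-seq2 protocol. Reads were cleaned with Trimmomatic and aligned by HISAT2 2.0.5 to danRer10, and the FPKM values that the authors deposited come from StringTie 1.3.3 with Ensembl gene models. How reads shared by close paralogues were assigned is not given in the sources used here.

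Members were found by gene symbol, and the identifiers of all 9 carry the same symbol in the reference table of gene names. The calculations used numpy 2.4.6 and pandas 2.3.3 under Python 3.11.15, and matplotlib 3.10.9 drew the plots. Functions were tested on simulated data. Stages were compared without a test, since each stage is 1 embryo. The members, the 4 gene lists and the 6 marker lists were chosen with earlier results of these data known.

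Besides the members, the text names, for each list, pair of adjacent stages and direction, up to 3 genes with the largest difference among those past 2-fold without overlap whose higher stage had no cell under an FPKM of 1, and the 3 genes most alike to each of 4 members. The remaining kept genes of the list of inducible Hsp, heat shock factors and small Hsp, dnajb11 and trap1 were added after their values had been seen. Alternatives were other pseudocounts, 3 other scalings, the mean of log2 values, other filters and leaving out each cell.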

Additional observations from a re-analysis of the deposited data

How the results depend on the processing

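Of the differences of single members under the alternatives, 307 moved by less than the spread between cells, 15 moved by more and 2 that were past 2-fold changed sign. This spread is wide for some members, so the count of 307 does not show that values were stable. From 6 to 24 hpf hspa9 is counted there with -0.39 and, divided by actb1, -1.90, at a spread of 3.11. Differences below 2-fold also changed sign in places, and these were counted by how far they moved. An example is hspe1 from 6 to 24 hpf, at 0.90 and at -0.70 when divided by actb1. Dividing by actb1 lowered the median over all genes kept from 0.029 to -0.99 in the first step, from -0.08 to -0.51 in the second and from -0.10 to -1.54 from 6 to 24 hpf, and changes on that scale are relative to these shifts. On it the median over the members was -0.77 from 6 to 11 hpf and -1.90 from 6 to 24 hpf, no member was higher by 2-fold in either step or from 6 to 24 hpf (0; 9.38%, 18.9% and 10.2% of the genes kept were), 4 were lower from 6 to 11 hpf (49.4% of the genes kept), and from 6 to 24 hpf the differences of hspa8 (-0.37) and hsp90ab1 (-0.68) changed sign. With TPM or median-of-ratios scaling 0 members were higher by 2-fold from 11 to 24 hpf (25.2% and 24% of the genes kept) and 1 from 6 to 24 hpf (27.2% and 23.6%). With TPM the log2 difference of hspe1 was 0.975 from 11 to 24 hpf. Those of hspa8 and hsp90ab1 from 6 to 24 hpf were 0.957 and 0.950, so these members fell just short of 2-fold. The mean of log2 values gave a median of -0.63 from 11 to 24 hpf, of the other sign, and of -1.65 from 6 to 24 hpf. Leaving out single cells gave 1 to 2 members higher (20.9% to 26.2% of the genes kept) and 1 to 2 lower by 2-fold (21.3% to 27%) from 6 to 11 hpf. It gave 0 to 2 higher from 11 to 24 hpf (24.7% to 30.6%) and 1 to 3 higher from 6 to 24 hpf (26.3% to 30.4%). The medians over the members then ran from -0.12 to 0.36, from -0.69 to 0.59 and from -0.89 to 0.18. With a pseudocount of 10 the share of all genes past 2-fold was 10.1% higher and 9.42% lower from 6 to 11 hpf and 16.2% and 17.9% from 11 to 24 hpf. The gene lists without 24_1 or 24_2 and under the other scalings, and their medians over all genes kept, were alternatives chosen after seeing the data. No paired analysis was possible because no result comes from a test and cells with the same number come from different embryos. FPKM gives no read count behind a single value, so it cannot be said which values of 0 are missed transcripts.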
